A study of Homo sapiens with 2 samples.

Results

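The barcodes described here are those in which the 13 mitochondrially encoded genes of the files (the MT- genes) held more than 15% of all unique molecular identifiers (UMIs, counted RNA molecules). They numbered 2819 of the 13545 barcodes of 2 single-cell libraries, 471 of 5077 in CHLA9 and 2348 of 8468 in TC71. They were divided at 50% MT- UMIs into 194 and 1760 barcodes above 15% to 50%, and 277 and 588 barcodes above 50%. Each class was compared with the reference barcodes of its own library, 4524 in CHLA9 and 1729 in TC71, which had no more than 15% MT- UMIs, 5000 or more UMIs in all and 2000 or more genes. The remaining 82 barcodes of CHLA9 and 4391 of TC71 belonged to neither group, and the former, like 4389 of the latter, had fewer than 5000 UMIs.

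CHLA9 and TC71 are established Ewing sarcoma cell lines, a bone and soft tissue tumour driven by a fusion of EWSR1 to FLI1, and the study profiled single cells of such lines to follow the activity of that fusion. The medium of CHLA9 was IMDM with serum, insulin, transferrin and selenium, and that of TC71 was RPMI-1640 with less serum. Neither line carried an added construct or received a treatment. Both were detached with trypsin and EDTA, held in cold buffered saline with albumin, strained, and loaded on a droplet controller with a 3′ counting kit after a check of viability with trypan blue. There was 1 library of each line, and CHLA9 was sequenced on a second instrument as well, so line, medium and sequencing cannot be told apart.

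A high share of mitochondrial transcripts is widely used to set aside barcodes in droplet data. Mitochondrial messenger RNAs lie inside the organelle behind 2 membranes, nuclear noncoding RNAs such as MALAT1 stay on chromatin or in nuclear bodies, and messenger RNAs of secreted and membrane proteins are translated on ribosomes bound to the endoplasmic reticulum (ER). Most other messenger RNAs, including those of ribosomal proteins, glycolytic enzymes and actin regulators, are translated by free ribosomes in the cytosol. The lists below were ordered by these places. The rule reads only RNA shares, and no measure of membrane integrity per barcode was among the files, so "damaged" is used here as the name of the rule.

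The share of barcodes above 15% MT- was 9.28% in CHLA9 (exact 95% Clopper-Pearson interval 8.49 to 10.1) and 27.7% in TC71 (26.8 to 28.7), and such intervals cover counting error only. Among barcodes with at least 5000 UMIs and 2000 genes the shares were 3.85% (181 of 4705) and 25.8% (601 of 2330). The members nearest to the 15% limit had 15.019% MT- in CHLA9 and 15.005% in TC71, and the nearest barcodes outside it 14.995% and 14.991%. At 50% the nearest were 50.35% and 50.04% above and 49.88% and 49.99% below. The highest MT- percent was 97.5 in CHLA9 and 86.2 in TC71. Barcodes next to the 15% limit differed between the lines. In CHLA9 the 5 barcodes above 15% to 16% had a median of 36533 UMIs and the 9 above 14% to 15% a median of 31280. In TC71 the 68 and 93 barcodes at the same places had medians of 1519 and 1750 UMIs. Of the barcode names, 16 occurred in both libraries, 1 of them above 15% MT- in both.

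Mitochondrial UMIs were as many as in the reference above 50% MT-, and the others were far fewer. The median of MT- UMIs per barcode in the reference was 2648 in CHLA9 and 3002 in TC71, and above 50% MT- it was 3083 and 3186.5. The median of non-mitochondrial UMIs was 32020.5 and 30307 in the reference against 1320 and 2351.5 above 50% MT-, 24.3-fold and 12.9-fold lower. The MT- medians of these barcodes were 1.16 and 1.06 times that of the reference. At 15% to 50% the lines differed. In CHLA9 the medians were 3337.5 MT- and 4988 other UMIs, but in TC71 they were 580.5 and 1321. Of the 1760 TC71 barcodes of this class, 1236 had fewer than 5000 UMIs, with medians of 398 MT- and 968.5 other UMIs. The 471 TC71 barcodes of the class with at least 5000 UMIs and 2000 genes had medians of 3524 and 5424, close to the 3476.5 and 5810 of the 154 such barcodes of CHLA9.

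**Figure D1:**
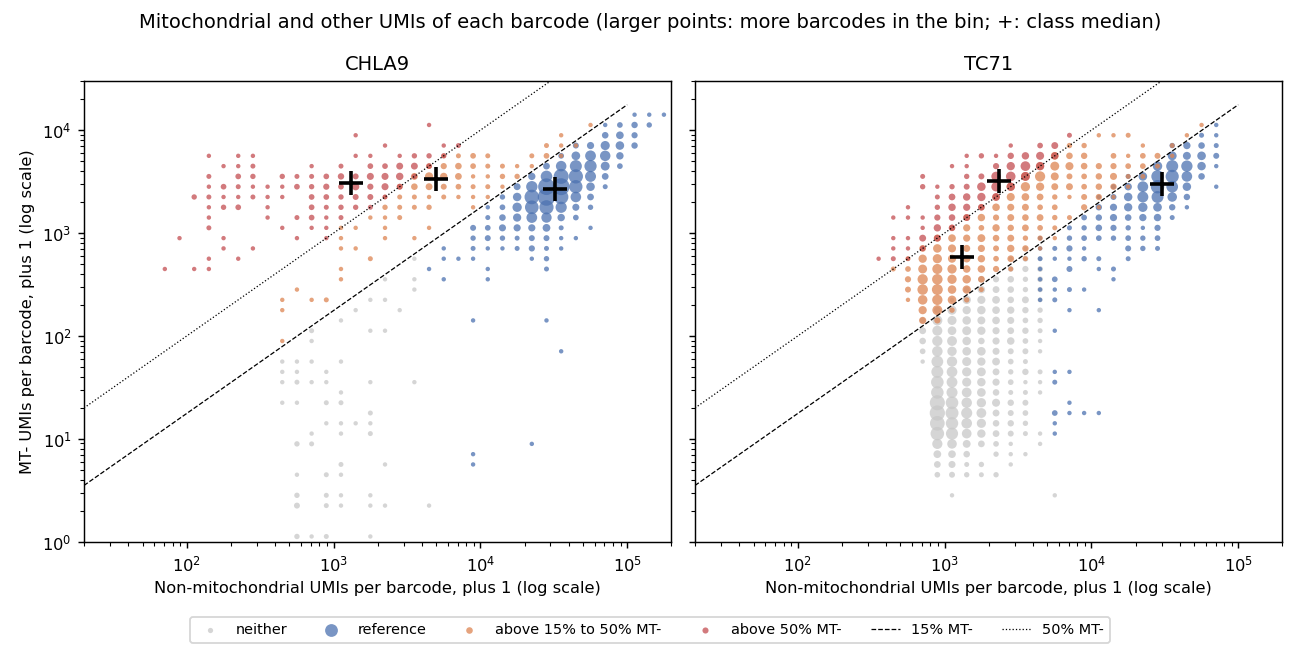
MT- UMIs against all other UMIs of each barcode, both plus 1 and on log scales, with barcodes gathered in bins and larger points for bins of more barcodes. The classes above 50% MT- lie at the height of the reference, with medians of 3083 and 3186.5 MT- UMIs against 2648 and 3002, but far to its left, and the 15% to 50% class of TC71 reaches down to its many shallow barcodes.

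The number of genes seen at equal depth moved little. After each barcode was thinned to 1000 non-mitochondrial UMIs, the median number of genes was 724 in the CHLA9 reference, 740 at 15% to 50% and 759 above 50%, and 696, 730 and 753 in TC71. Without thinning, the medians were 6519.5, 2553 and 974 in CHLA9 and 6035, 838 and 1465.5 in TC71. The thinned medians left out the barcodes with too few UMIs, 110 of 277 above 50% in CHLA9 and 660 of 1760 at 15% to 50% in TC71.

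The split of MT- UMIs among the 13 mitochondrial messenger RNAs moved less in CHLA9 than in TC71, with log2 ratios above 50% from -0.38 to 0.16 and from -0.58 to 0.72. They encode subunits of respiratory complexes I (MT-ND genes), III (MT-CYB) and IV (MT-CO genes) and of ATP synthase (MT-ATP genes). The rule used their sum but not the split among them. MT-CO2 took the largest share of MT- UMIs, 26.3% in the CHLA9 reference and 26.6% above 50%, and 24.0% and 25.4% in TC71. MT-CO1 moved from 20.1% to 19.6% in CHLA9 and from 14.3% to 12.5% in TC71, with 592 and 623 UMIs per barcode in CHLA9 and 441 and 412 in TC71. MT-ND4 was lower in its share of MT- UMIs in both lines. Its log2 ratio above 50% was -0.23 in CHLA9 (exact 95% interval -0.25 to -0.22) and -0.58 in TC71 (-0.59 to -0.57). MT-ND2 had ratios of -0.37 and -0.48, and MT-ATP6 of 0.14 and 0.29. MT-ND6, the messenger RNA read from the light strand, had the highest log2 ratio of the 13 in both classes and lines. At 15% to 50% its share of MT- UMIs had a ratio of 0.31 in CHLA9 (0.26 to 0.37) and 1.17 in TC71 (1.14 to 1.20). In TC71 its level there was 10.1 UMIs per barcode against 9.74 in the reference, while MT-CO1 stood at 192 against 441.

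Genes that resemble the mitochondrial 16S ribosomal RNA had the highest fold changes of all named genes, in a list added after the data were seen. MTRNR2L12 and MTRNR2L8 are nuclear genes whose sequence is a copy of MT-RNR2, the 16S gene, which is not among the 13 MT- genes of the files and so did not enter the rule. MTRNR2L12 stood at 122, 802 and 3701 UMIs per 1000000 non-mitochondrial UMIs (CPM) in the reference, 15% to 50% and above 50% barcodes of CHLA9, and at 72.8, 676 and 1758 CPM in TC71. The order of the classes was the same in both lines. Its log2 fold change was 2.98 at 15% to 50% and 4.77 above 50%. It comes from edgeR's fit on the UMIs summed per class and library, with the library as a block, whose quasi-likelihood test is used below. The rule chose barcodes with many mitochondrial UMIs for their other UMIs. If reads of the 16S RNA were counted here, the rise of this share would follow from the rule, so no p-value is given. The source of these reads was not tested. Per barcode, it was counted more often above 50% than in the reference, with 4.38 UMIs in the reference and 5.92 above 50% in CHLA9, and 2.23 and 4.38 in TC71. MTRNR2L8 rose by 2.45 and 4.05 on the log2 scale, with the same limit. MTRNR2L1 went from 1.37 CPM to 45.2 above 50% in CHLA9 and from 1.98 to 49.8 in TC71, and it is given by its levels only, since it reached the level tested through the damaged classes.

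The letters below are shown because the sequences are alike over long stretches. In GRCh38 and RefSeq's annotation, MTRNR2L12 lies at chr3:96617186-96618223 and MTRNR2L8 at chr11:10507887-10509176, both on the minus strand, and MT-RNR2 at chrM:1671-3229 in GENCODE 44. MTRNR2L12 matched MT-RNR2 at 95.4% of 1035 aligned bases and MTRNR2L8 at 93.3% of 1289. The runs shown for MTRNR2L12 and MT-RNR2 cover chr3:96617188-96617287 on the minus strand and chrM:2619-2718 on the plus strand, and differ at 4 of 100 bases. Each is written 5′ to 3′, with differing bases in capitals. Reads of near-identical copies may be split between them by the counting, so the values are uncertain as levels of these nuclear genes.
MTRNR2L12: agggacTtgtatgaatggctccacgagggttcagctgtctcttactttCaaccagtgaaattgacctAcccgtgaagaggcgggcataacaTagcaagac
MT-RNR2: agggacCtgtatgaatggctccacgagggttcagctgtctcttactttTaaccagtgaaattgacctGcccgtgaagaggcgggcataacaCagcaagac

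Across all nuclear genes the question was which transcripts took a larger or smaller share of the non-mitochondrial UMIs once most of these were gone. Cells are not replicates, so the 6 sums (3 classes in each of 2 libraries) were compared. A call therefore says that the mean change of a gene over these 2 libraries was large for the spread in the fit, and the libraries are of different lines. The size of the change could still differ widely between the lines, as for HSPA5 and SEC61A1 below. Of 7622 genes tested, 703 were higher (9.22%) and 12 lower (0.157%) at 15% to 50% MT-, 9.38% in all. Above 50%, 2107 were higher (27.6%) and 1201 lower (15.8%), 43.4% in all, at an adjusted p under 0.05. Genes were tested from a mean of 20 CPM over the 6 sums, and 674 of them were below 20 CPM in both references. These reached the level tested through the damaged classes, and they hold 238 of the 703 and 519 of the 2107 higher calls and no lower call. Between the damaged classes no gene passed (0.00%), with 786 genes at an unadjusted p under 0.05 in edgeR and 290 past the threshold in DESeq2. The median log2 fold change of all genes was 0.19 and 0.27. TMM scaling moved that median by -0.18 and -0.22, which left no call at 15% to 50% (2493 genes at an unadjusted p under 0.05) and 1557 higher and 1622 lower calls above 50%. Without the library as a block neither class had a call in edgeR, with 398 and 1491 genes at an unadjusted p under 0.05.

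Nuclear noncoding RNAs took a larger share of the summed UMIs in damaged barcodes. All 6 tested genes of the list of nuclear long noncoding RNAs were higher above 50% MT- and 5 of 6 at 15% to 50%, beside 27.6% and 9.22% of all genes. Their summed share of non-mitochondrial UMIs was 2.11%, 8.60% and 10.9% over the classes in CHLA9 and 0.941%, 3.53% and 4.12% in TC71. The median log2 fold change of the 6 genes was 1.69 and 2.17, against 0.19 and 0.27 over all genes. With TMM scaling none of the 6 passed at 15% to 50%, where the median was 1.51, and all 6 did above 50%.

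MALAT1, a single-exon noncoding RNA of nuclear speckles at chr11:65497640-65508073 on the plus strand (GENCODE 44), carried most of that share. Its level in CHLA9 was 18187 CPM in the reference, 74857 at 15% to 50% and 92012 above 50%. In TC71 it was 7892, 31095 and 36351 CPM. In these sums both damaged classes were above the reference in both lines, with log2 fold changes of 2.01 and 2.27 (adjusted p = 0.0331 and 0.00911, edgeR). A sum gives more weight to deep barcodes. In the median barcode of TC71, MALAT1 took 0.584% at 15% to 50%, below the 0.635% of the reference, while the 75th percentile was 2.43% against 1.01%. Above 50% the median of TC71 was 1.23%, and the medians of CHLA9 were 1.52%, 8.64% and 4.08% over the classes. NEAT1, the scaffold of nuclear paraspeckles at chr11:65422774-65445540, went from 2444 CPM to 9536 and 14051 in CHLA9 and from 1077 to 2943 and 3336 in TC71. KCNQ1OT1, the imprinted transcript that runs antisense through KCNQ1, stood at 177, 638 and 1107 CPM in CHLA9 and at 128, 455 and 521 in TC71. The kit reads from the 3′ end, and the strand setting of the counting is not given in the sources used here, so reads of KCNQ1 and its antisense transcript may be mixed. MEG3, an imprinted noncoding RNA, was named after its values were seen. It went from 37.7 CPM to 143 and 287 in CHLA9, and in TC71 from 5.86 to 16.1 and 21.2.

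The wider class of long noncoding RNAs moved the same way. Of 150 tested genes of this GENCODE 44 type, 84 were higher and 0 lower at 15% to 50%, where 9.22% and 0.157% of all genes were. Above 50%, 105 were higher and 4 lower, where 27.6% and 15.8% of all genes were. Of the 150, 55 were below 20 CPM in both references and hold 42 and 52 of the higher calls. The other 95 hold 42 and 53 higher calls, beside 465 and 1588 of the 6948 such genes in all. Without MALAT1 and NEAT1, the class still went from 0.564% to 1.38% and 2.12% of non-mitochondrial UMIs in CHLA9, and from 0.437% to 0.749% and 0.854% in TC71. FTX, a neighbour of the X inactivation centre, went from 94.2 CPM to 385 and 583 in CHLA9 and from 39.2 to 153 and 199 in TC71 (adjusted p = 0.0219 at 15% to 50%, edgeR). LINC01355 rose by 1.89 on the log2 scale at 15% to 50% (adjusted p = 0.0272, edgeR). AL645608.3 was among the highest above 50%, at 2.48 (adjusted p = 0.00419). For LINC01355 in TC71 the order of the damaged classes was inverted, with 32.7 CPM at 15% to 50% and 22.5 above 50%.

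Host genes of small nucleolar RNAs, whose spliced transcripts leave the nucleus, were called about as often as all genes. Of 10 tested, 3 were higher (SNHG7, SNHG12 and SNHG15) and 1 lower (ZFAS1) above 50%, beside 27.6% and 15.8% of all genes. SNHG12, named after its values were seen, rose by 1.69 and ZFAS1 fell by 1.19 on the log2 scale. The share of the list was 0.0770% in the reference and 0.0743% above 50% in CHLA9, and 0.0941% and 0.0889% in TC71.

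Counted per barcode rather than as a share, the nuclear noncoding RNAs stood near the reference where the barcode was deep. In damaged barcodes with at least 5000 UMIs and 2000 genes, CHLA9 held a mean of 754 UMIs of the list in the reference, 758 at 15% to 50% and 708 above 50%, which is 100% and 93.9% of the reference. TC71 held 288, 312 and 285, or 108% and 98.7%. Over the same barcodes all non-mitochondrial UMIs stood at 24.7% of the reference in either line at 15% to 50%, and at 12.3% and 13.9% above 50%. The depth limit selects barcodes with much RNA. Above 50% it kept 27 of 277 barcodes in CHLA9 and 130 of 588 in TC71. Over all damaged barcodes the list stood at 84.7% and 23.0% of the reference in CHLA9, and at 36.6% and 35.6% in TC71.

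**Figure D2:**
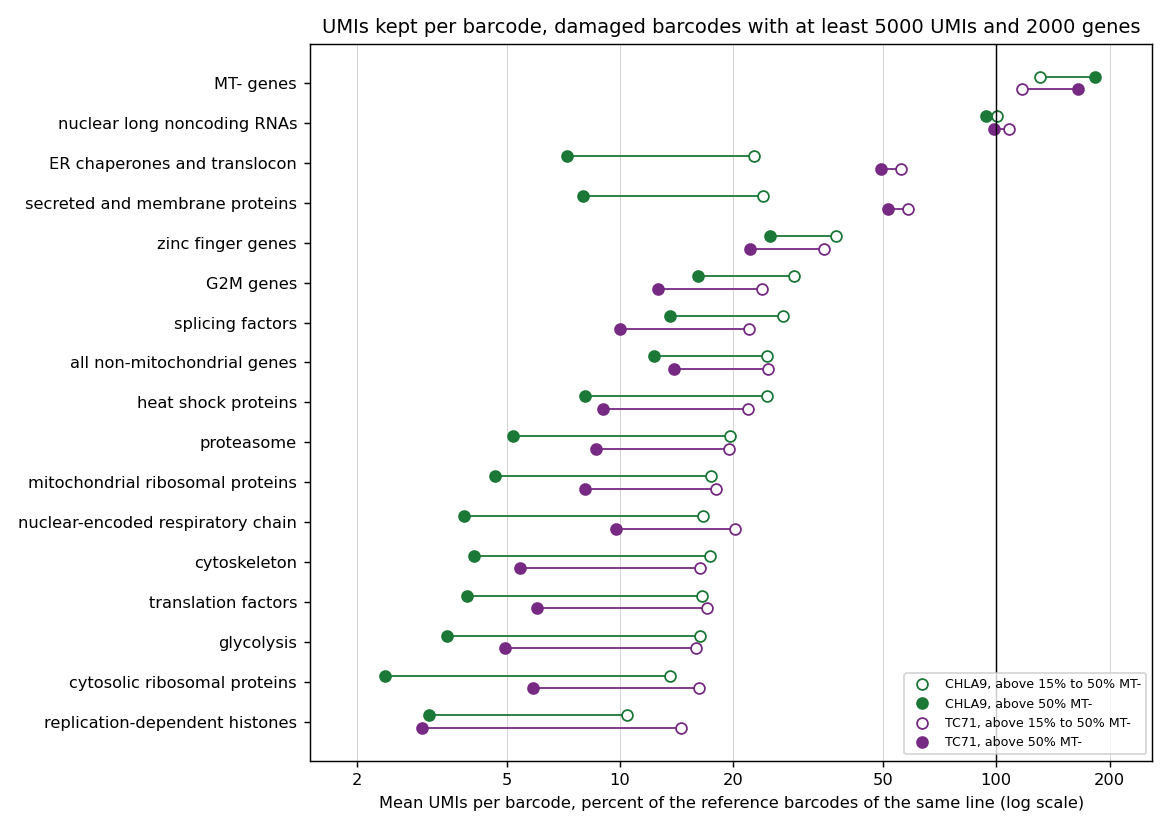
Mean UMIs per barcode of each gene list as a percent of the reference of the same line, on a log scale, for damaged barcodes with at least 5000 UMIs and 2000 genes, with open points at 15% to 50% MT- and filled points above 50%. The filled points rest on 27 barcodes in CHLA9 and 130 in TC71. MT- genes lie at 117% to 183% and nuclear long noncoding RNAs at 93.9% to 108% in both lines, cytosolic ribosomal proteins at 2.38% to 16.2%, and the ER and secreted lists are apart in the 2 lines.

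Several lists of messenger RNAs translated in the cytosol took a smaller share above 50% MT-. Of all 7454 protein-coding genes tested, 1988 were higher and 1197 lower there, beside 27.6% and 15.8% of all genes. Those that reached the level tested through the damaged classes were not counted apart. The list of cytosolic ribosomal proteins, the parts of the ribosome, went from 18.5% of non-mitochondrial UMIs in the CHLA9 reference to 10.0% and 5.09%, and from 22.0% to 16.6% and 12.4% in TC71. Above 50%, 70 of 84 tested members were lower and 0 higher, beside 15.8% of all genes lower, and the median log2 fold change was -1.31. No member passed at 15% to 50% in edgeR, with a median of -0.64, while DESeq2 called 56 lower. In TC71 the fall in the sum at 15% to 50% came with no fall in the median barcode, which had 23.2% ribosomal protein UMIs against 22.2% in the reference, and with every barcode weighted alike the log2 ratio was -0.11. In CHLA9 that ratio was -1.39. RPS2, a protein of the small subunit, went from 6645 CPM to 3265 and 1951 in CHLA9 and from 5814 to 4218 and 3184 in TC71, with a log2 fold change of -1.32 above 50% (adjusted p = 0.0245, edgeR). RPL36A and RPS21 were at 0.01 and -0.08 and did not pass.

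Translation factors followed the ribosomal proteins. Of 19 tested, 14 were lower above 50% and 0 higher, beside 15.8% and 27.6% of all genes, with a median of -0.97. EEF1A1, which brings transfer RNA to the ribosome, fell from 6777 CPM to 2175 above 50% in CHLA9 and from 6552 to 2891 in TC71, a log2 fold change of -1.40 (adjusted p = 0.0165, edgeR). TPT1 fell by 1.66 and NACA, a partner of nascent chains, by 1.59 on the same scale. None of the list passed in edgeR at 15% to 50%.

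The same direction held for glycolysis, the cytoskeleton and the proteasome. Shares lower are read here, too, against 15.8% of all genes. Of 13 glycolytic genes tested, 8 were lower above 50%, among them GAPDH at -1.36, ENO1 at -1.37 and LDHB at -1.58. Of 33 cytoskeletal genes, 25 were lower and 0 higher. CFL1, which severs actin filaments, went from 1013 CPM to 558 and 269 in CHLA9 and from 1007 to 543 and 294 in TC71 (log2 fold change above 50% -1.84, adjusted p = 0.00546, edgeR). PFN1, which binds actin monomers, had a fold change of -1.89, and TUBA1B of -1.41. Of 34 proteasome genes, 19 were lower and 1 higher above 50%. PSMA6, the higher one and named after its values were seen, went from 20.8 to 83.6 CPM in CHLA9 and from 28.6 to 66.2 in TC71.

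Nuclear genes of the mitochondrion did not follow the transcripts made inside it. Mitochondrial ribosomal proteins had 40 of 73 tested members lower above 50% and 0 higher, beside 15.8% and 27.6% of all genes, with a median of -0.89. Nuclear-encoded subunits of the respiratory chain had 35 of 78 lower and 1 higher. The share of this list went from 2.23% to 0.872% in CHLA9 and from 3.20% to 2.67% in TC71. UQCRH of complex III was lower in both lines, with 1245 CPM in the reference and 370 above 50% in CHLA9, and 1602 and 661 in TC71. NDUFA4 went in opposite directions in the lines, and COX6A1 was higher in both but by unlike amounts. NDUFA4 stood at 803 and 201 CPM in CHLA9 but at 1060 and 1556 in TC71, and COX6A1 at 357 and 429 against 562 and 1727. Neither passed the test above 50% (adjusted p = 0.371 and 0.0746). The gene called higher was SDHA of complex II, at 1.05, named after its values were seen.

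Replication-dependent histones gave the steepest fall of a single named gene. HIST1H4C, a histone H4 gene at chr6:26103933-26104337, went from 1691 CPM to 485 and 221 in CHLA9 and from 1396 to 610 and 184 in TC71. Its log2 fold change was -1.49 and -2.94 (adjusted p = 0.0320 and 0.00416, edgeR). At 15% to 50%, 2 of 8 members tested were lower and 0 higher, beside 0.157% and 9.22% of all genes. Above 50%, 4 were lower and 1 higher, beside 15.8% and 27.6% of all genes. In the list, 63 more were below the level tested. The higher one was HIST1H2BN, at 6.62 and 29.4 CPM in CHLA9 and 15.5 and 36.2 in TC71, named after its values were seen, and it was among the genes that reached the level tested through the damaged classes. The share of the list went from 0.247% to 0.0851% in CHLA9 and from 0.202% to 0.0473% in TC71. With shallow barcodes of at most 15% MT- as the reference, HIST1H4C at 15% to 50% had a fold change of 0.23 and did not pass.

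**Figure D3:**
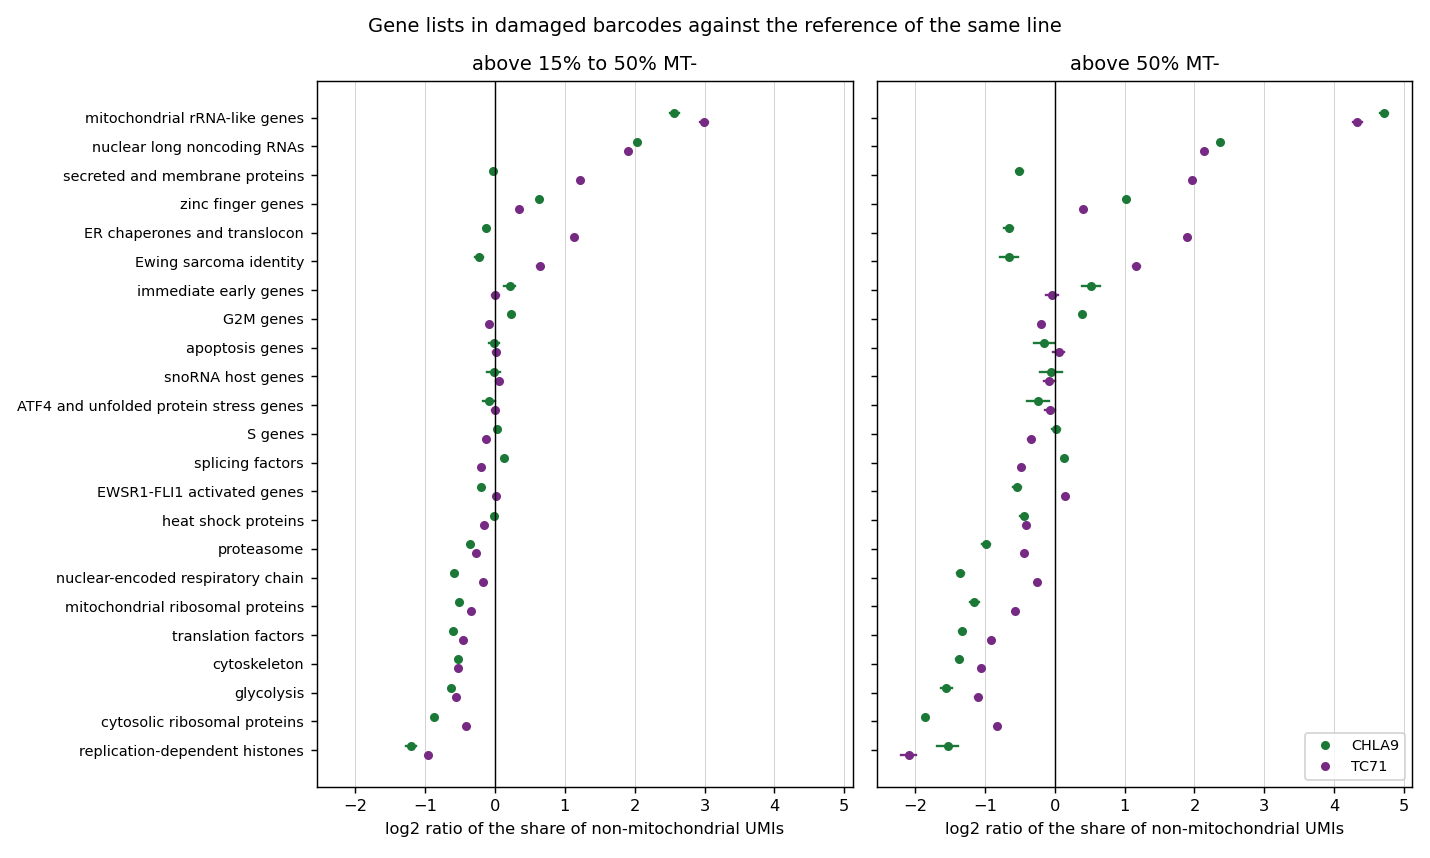
The log2 ratio of each list's share of non-mitochondrial UMIs over the reference of the same line, for both damaged classes, with exact 95% intervals of counting error as bars. The genes like mitochondrial ribosomal RNA (4.71 and 4.33 above 50%) and nuclear long noncoding RNAs lie far to the right in both lines, ribosomal proteins (-1.86 and -0.83) and histones to the left, and the ER, secreted and Ewing identity lists on opposite sides of 0 above 50%.

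The summed shares of lists of messenger RNAs translated on the ER went in opposite directions in the 2 lines. The list of ER chaperones and translocon parts, the folding and entry machinery of secreted proteins, held 0.657% of non-mitochondrial UMIs in the CHLA9 reference, 0.600% at 15% to 50% and 0.415% above 50%. In TC71 it held 0.731%, 1.60% and 2.70%. The log2 ratio above 50% was -0.66 in CHLA9 (exact 95% interval -0.73 to -0.60) and 1.89 in TC71 (1.87 to 1.90). With 1 library of each line, the difference between them has no test. In TC71, 27 of 32 tested members were at least 2-fold higher above 50% and 0 at least 2-fold lower, beside 25.0% and 7.35% of all genes in that library. In CHLA9, 0 were at least 2-fold higher and 11 at least 2-fold lower, beside 26.9% and 18.1%. At 15% to 50% the same limits took 21 and 0 members in TC71, beside 17.5% and 0.236% of all genes, and 1 and 0 in CHLA9, beside 12.1% and 1.98%.

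The chaperones with the highest levels show this gene by gene. HSP90B1, the ER form of HSP90, stood at 490, 599 and 506 CPM over the classes of CHLA9 and at 622, 2249 and 4187 in TC71. CALR, which binds calcium and new glycoproteins, stood at 637, 536 and 384 in CHLA9 against 447, 1204 and 2173 in TC71. PDIA6, a disulfide isomerase, went from 409 to 276 CPM in CHLA9 and from 408 to 2118 in TC71 above 50%. None of these passed the test shared by the lines (adjusted p = 0.114, 0.382 and 0.278 above 50%, edgeR). The 6 members that did pass as higher were HSPA5, HYOU1, SEC61A1, DNAJB11, HERPUD1 and DNAJC3, named after their values were seen, and with TMM scaling none of them passed. HSPA5, the main chaperone of the ER, went from 181 to 242 CPM in CHLA9 and from 270 to 2172 in TC71.

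A group of 3 members was lower in both lines, SEC61B, SEC61G and SERP1, and these also were named after their values were seen. They encode small proteins anchored by a segment at their tail end, which is inserted into the ER membrane after translation is over. SEC61A1 encodes the pore of the same translocon. Whether the way of insertion or transcript length bears on these values was not tested. Above 50% the log2 ratios of SEC61B, SEC61G and SERP1 were -1.85, -1.85 and -1.06 in CHLA9 and -0.60, -0.73 and -0.79 in TC71. SEC61A1 was at 0.44 in CHLA9 and 2.53 in TC71. In TC71 the other 29 members of the list had ratios above 0. In CHLA9 only 11 of 32 members were above 0 and 11 were at least 2-fold lower, so a lower share there was not particular to these 3 genes. The 3 genes were called lower in the shared test (log2 fold changes of -1.17, -1.20 and -0.92, adjusted p = 0.0348, 0.0242 and 0.0228, edgeR), with TMM scaling too.

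Secreted and membrane proteins resembled the ER list in their summed share. Their share was 0.897%, 0.876% and 0.632% over the classes in CHLA9, and 0.655%, 1.53% and 2.55% in TC71. In TC71, 39 of 43 tested members were at least 2-fold higher above 50%, beside 25.0% of all genes in that library. Of the others, 3 (CCK, COL4A1 and COL4A2) had 0 UMIs there and under 1 CPM in the reference. In CHLA9, 5 were at least 2-fold higher and 7 at least 2-fold lower, beside 26.9% and 18.1% of all genes. By gene the list moved little in CHLA9, with 21 of 43 above 0 and a median log2 ratio of -0.04, against 2.21 in TC71. TIMP1, a secreted protease inhibitor, stood at 72.8 and 42.9 CPM in CHLA9 and at 1064 and 4729 in TC71. B2M, the light chain of MHC class I, stood at 866 and 291 against 1788 and 5021. A few members were higher in both lines. LAMB1, a laminin chain, went from 43.6 CPM to 103 and 163 in CHLA9 and from 27.6 to 102 and 210 in TC71 (log2 fold change 1.55 and 2.42, adjusted p = 0.0294 and 0.00435, edgeR). TFRC, the transferrin receptor, named after its values were seen, went from 44.3 to 120 CPM and from 86.2 to 539 above 50%. In the shared test 10 members were higher and 1 lower above 50%, no more often higher than the 27.6% of all genes, and 6 and 1 with TMM scaling. Of the 43, 3 were below 20 CPM in both references and hold 2 of the higher calls. The other 40 hold 8 (20%), beside 22.9% of all such genes. Such members were not counted apart in the 2-fold counts.

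The difference between the lines was seen over most barcodes of the class. Among barcodes with at least 1000 non-mitochondrial UMIs, the ER list took a median of 2.71% of them in TC71 above 50% MT-, and the 10th percentile, 1.67%, was above the 90th percentile of the TC71 reference, 0.871%. In CHLA9 the median was 0.318% above 50% and 0.651% in the reference. In deep damaged barcodes TC71 kept 55.8% and 49.4% of the reference UMIs of the ER list, and CHLA9 22.7% and 7.23%. Secreted and membrane proteins were kept at 58.4% and 51.7% in TC71 and at 24.0% and 7.99% in CHLA9. Above 50% these deep barcodes numbered 130 in TC71 and 27 in CHLA9. Shallow TC71 barcodes of at most 15% MT-, which were no members, held 0.558% of UMIs in the ER list, below the reference of their line.

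Within a class, barcodes rich in nuclear noncoding RNAs were poor in ribosomal protein messenger RNAs. Spearman's rho across barcodes between the shares of nuclear noncoding RNAs and of ribosomal proteins was -0.81 at 15% to 50% (187 barcodes) and -0.57 above 50% (167) in CHLA9, and -0.78 (1100) and -0.70 (522) in TC71. In the references it was -0.30 and -0.54. All shares are parts of the same total and the barcodes come from 1 library each, so these are given as a description with no test. The shares of the ER and secreted lists went together, with rho of 0.76 and 0.52 in CHLA9 and 0.82 and 0.60 in TC71. Nuclear noncoding RNAs and the ER list had a rho of -0.59 at 15% to 50% in CHLA9 and 0.38 in TC71. The sign was the same in both lines above 50%, with -0.33 and -0.13, and in the references, with -0.34 and -0.12. The ER list and ribosomal proteins were of opposite sign in the lines, with 0.61 and 0.30 in CHLA9 and -0.62 and -0.09 in TC71.

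Along the MT- percent the largest step up to 75% lay, in both lines, between the bins of 15% to 25% and 25% to 50%, with smaller steps before it. Ribosomal proteins took 17.6%, 18.5% and 19.7% of UMIs in CHLA9 reference barcodes of up to 5%, 10% and 15% MT-. They took 16.0% at 15% to 25%, 4.95% at 25% to 50%, 4.50% at 50% to 75% and 10.5% above 75%. In TC71 the values below 15% were 23.3%, 22.1% and 21.7%, followed by 20.5%, 13.8% and 12.3%. The shares of nuclear noncoding RNAs went the other way, from 1.74% at 10% to 15% to 3.19% at 15% to 25% and 13.2% at 25% to 50% in CHLA9, and from 0.923% to 1.99% and 4.63% in TC71. Above 75% MT- the 93 barcodes of CHLA9 had a median of 273 other UMIs, and nuclear noncoding RNAs took 6.22% there. TC71 had 10 barcodes above 75%.

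**Figure D4:**
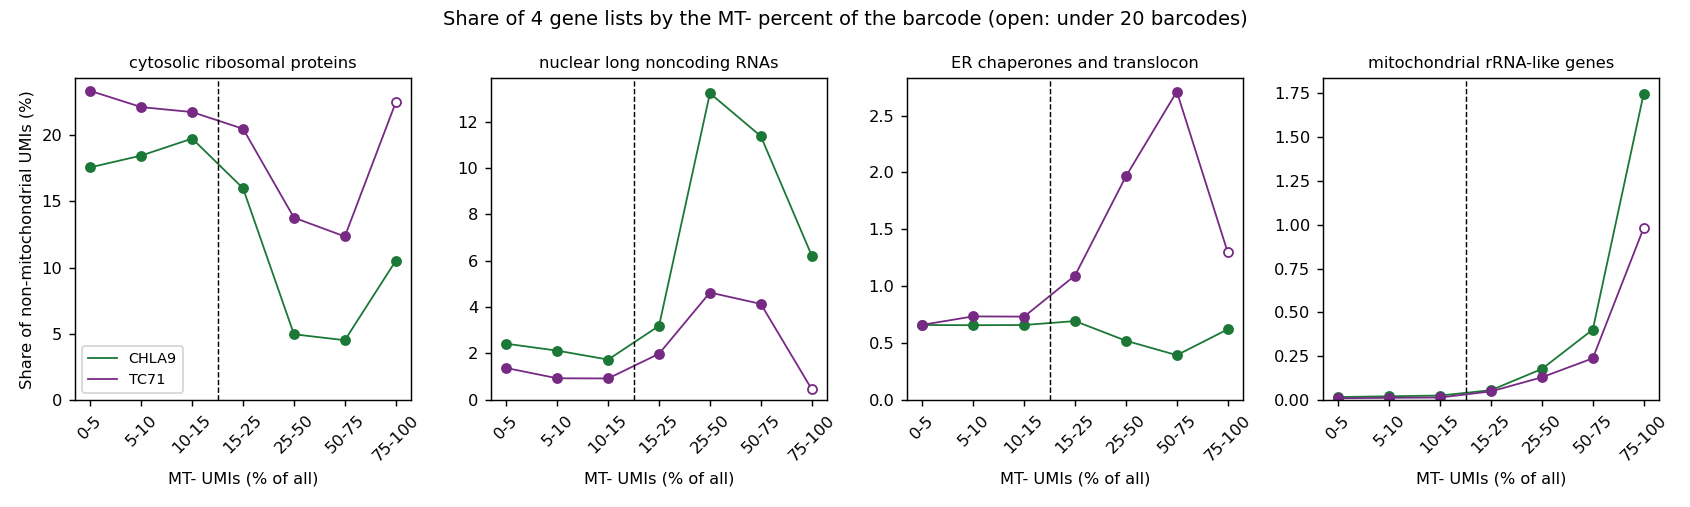
Share of non-mitochondrial UMIs of 4 lists by the MT- percent of the barcode, with reference barcodes left of the dashed line, damaged ones right of it, and open points for fewer than 20 barcodes. Ribosomal proteins drop and nuclear noncoding RNAs rise between 15% and 50% in both lines, the ER list climbs to 2.71% in TC71 only, and the genes like mitochondrial ribosomal RNA keep climbing to 1.75% above 75% in CHLA9.

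Depth within a class went with composition, though not alike in all classes. In TC71 the barcodes at 15% to 50% with fewer than 5000 UMIs had 21.9% ribosomal protein UMIs and 2.01% nuclear noncoding RNA, and those with more had 14.3% and 4.16%. Above 50% the TC71 values were 17.8% and 1.16% in shallow barcodes and 10.8% and 5.00% in deeper ones. In CHLA9 above 50% they were 7.31% and 6.55% against 4.11% and 12.8%. At 15% to 50% in CHLA9, the 30 shallow barcodes had 9.03% ribosomal protein UMIs, less than the 10.1% of the deeper ones, and 5.84% nuclear noncoding RNA against 8.70%. The shallow TC71 barcodes of at most 15% MT-, 4389 in number, had 25.1% and 0.714%. What free RNA in the droplets added to these shallow barcodes was not tested. Restricting members to at least 5000 UMIs and 2000 genes raised the calls at 15% to 50% to 1458 higher and 179 lower.

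Transcript length ordered the genes in both lines. A length of the canonical transcript in GENCODE 44 was found for 7608 of the 7622 tested genes (99.8%), and these were divided into 5 groups of like size. Above 50% the median log2 fold change was -0.68 in the shortest group (median length 1191 bases), then -0.01, 0.26 and 0.53, and 0.83 in the longest (8069.5 bases). In the shortest group 144 of 1522 genes were higher and 629 lower, and in the longest 733 of 1522 higher and 47 lower. Of all genes, 27.6% were higher and 15.8% lower. The genes that reached the level tested through the damaged classes were not counted apart by length. Leaving out ribosomal proteins and noncoding genes gave -0.68 and 0.83 at the ends. HMCN1, an extracellular matrix gene with a transcript of 18368 bases, rose by 2.50 on the log2 scale above 50% (adjusted p = 0.00416, edgeR), and SH3BGRL3 with 751 bases fell by 2.11 (adjusted p = 0.00443). Zinc finger genes, many of them coding for DNA-binding proteins, had 79 of 142 tested members higher and 3 lower (ZNF593, ZNF428 and ZNF706) above 50%, of 475 in the files. Of all genes, 27.6% were higher and 15.8% lower there. Of the 142, 37 were below 20 CPM in both references and hold 27 of the higher calls. The other 105 hold 52 higher calls (49.5%), beside 22.9% of all such genes.

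**Figure D5:**
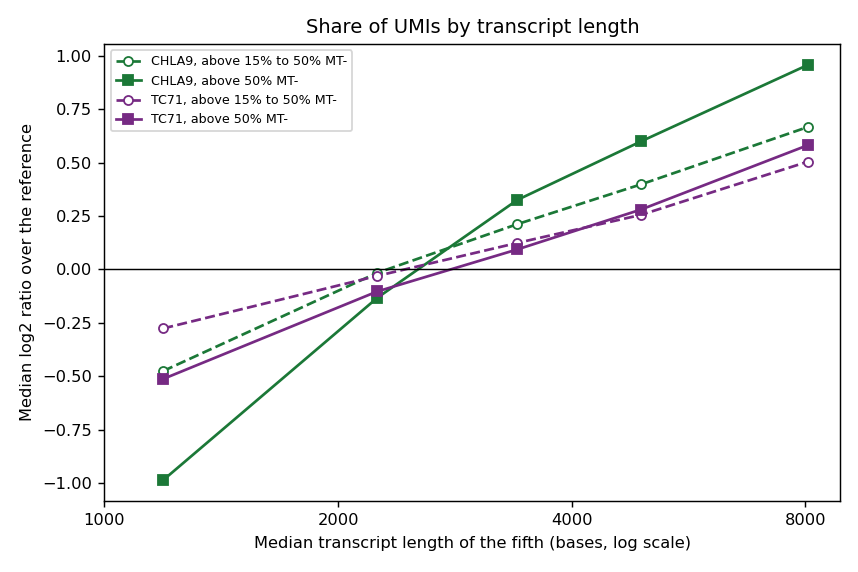
Median log2 ratio over the reference of the genes in each of 5 groups of transcript length, by line and damaged class, with length on a log scale. All 4 lines rise from below 0 for the shortest transcripts (-0.99 in CHLA9 and -0.51 in TC71 above 50%) to above 0 for the longest (0.96 and 0.58).

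Of other coding genes with high fold changes, PIF1, a DNA helicase, went from 53.4 CPM to 292 and 501 in CHLA9 and from 40.8 to 128 and 187 in TC71 (log2 fold change 2.02 and 2.70, adjusted p = 0.0233 and 0.00419, edgeR). CPNE7, a copine that binds membranes, rose by 2.43 above 50%. Lowest beside those named were BANF1, a chromatin-binding protein, at -1.85, SNX3, a sorting nexin, at -2.01, and PPP1R1A, a phosphatase inhibitor, at -1.85. EIF4EBP1, a repressor of translation initiation, was one of the 12 genes lower at 15% to 50%, at -1.01 (adjusted p = 0.0440, edgeR), and MRPL12, DCTPP1 and SRM lay next in order and did not pass there (-0.91, -0.95 and -0.91).

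Stress and death lists had no more calls than all genes, of which 43.4% were called above 50%. Of 11 immediate early genes tested only IER3 was higher above 50%, at 1.10. Of 14 heat shock genes, HSPB1, HSPE1 and HSPA4 were lower and 0 higher, and HSP90AA1, the most abundant, was at -0.40 (adjusted p = 0.295, edgeR). Of 12 genes of the ATF4 and unfolded protein response, VEGFA and SLC7A11 were higher and MTHFD2, CEBPG and PSAT1 lower, while ATF4 was at -0.10. Of 15 apoptosis genes, 3 were higher, CASP8 and TNFRSF10B among them, and BAD, BAX and PMAIP1 were lower. TNFRSF10B, a death receptor on the cell surface, went from 27.9 to 65.5 CPM in CHLA9 and from 30.4 to 102 in TC71. Except for ATF4, HSP90AA1, BAX and MTHFD2, these genes were named after their values were seen. Medians of the 4 lists above 50% were 0.20, -0.38, -0.19 and -0.22, against 0.27 over all genes, and with TMM scaling 0.01, -0.60, -0.41 and -0.45.

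Cell cycle lists held genes of both directions. Of 41 S phase genes, 4 were higher and 9 lower above 50%, and of 51 G2M genes 3 and 9, beside 27.6% and 15.8% of all genes. TYMS, which makes thymidylate, fell from 358 to 138 CPM in CHLA9 and from 250 to 97.6 in TC71. CENPF and MKI67, long transcripts of the mitotic chromosome, rose by 1.13 and 0.88 above 50% (adjusted p = 0.0404 and 0.0462, edgeR). Splicing factors had 1 of 31 higher (SRSF10) and 8 lower.

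All 6 Ewing sarcoma markers, CD99, NKX2-2, NR0B1, FLI1, STEAP1 and PRKCB, were detected in the summed UMIs of every class of both lines. What free RNA of the same library added to these sums was not tested. CD99, the diagnostic surface antigen, stood at 1235, 857 and 404 CPM over the classes in CHLA9 and at 442, 587 and 710 in TC71. STEAP1, a metalloreductase of the membrane, stood at 79.2, 76.3 and 49.7 against 263, 619 and 1291. Both also belong to the list of secreted and membrane proteins. EWSR1 and FLI1 did not pass in either class, with log2 fold changes of 0.52 and 0.11 above 50%. Of 18 tested genes activated by EWSR1-FLI1, 3 were higher (NKX2-2, STEAP2 and BCL11B) and 3 lower (CCK, PPP1R1A and PHF19) above 50%, beside 27.6% and 15.8% of all genes. Of 7 markers of leukocytes, red cells, endothelium, epithelium and fibroblasts, only COL1A1 was abundant enough to test, at 60.6 and 201 CPM in CHLA9 and 11.2 and 21.2 in TC71. The summed share of these 7 markers was 0.00626%, 0.0127% and 0.0201% over the classes in CHLA9, and 0.00147%, 0.00264% and 0.00314% in TC71. This share was higher in both damaged classes than in the reference in both lines. HBB had 0 UMIs in all classes, and PTPRC and PECAM1 had at most 9 in any class and 0 above 50%. CD68, HBA1 and EPCAM are part of the summed share and are not given one by one. The part of other cells in the results was not tested.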

How the data were processed

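The authors counted UMIs per gene and barcode with Cell Ranger 3.1.0 on hg38 (per the submitters' processing notes) and deposited these counts without normalization for 33538 genes. The sums compared held 442822 to 161668333 non-mitochondrial UMIs. No doublets were removed. UMIs of genes other than MT- were summed per class and library and fitted in edgeR 4.0.16 (R 4.3.3) with quasi-likelihood tests, the library as a block and the total non-mitochondrial UMIs as library size, for genes with a mean of at least 20 CPM. p-values were adjusted by Benjamini-Hochberg over all 7622 genes. Since the block sets each class against its own library, they measure only the spread between these 2 libraries. Alternatives covered scaling (TMM), DESeq2 1.42.0, filters, block, members, reference and split. List shares and MT- shares have exact intervals of Poisson ratios, which cover counting error only. Positions and lengths came from GENCODE 44 and RefSeq, and MTRNR2L genes were aligned to MT-RNR2 with Biopython 1.88. Other computations used Python 3.11.15, numpy 2.4.6, scipy 1.17.1 and pandas 2.3.3. The fit was tried on simulated counts with less spread than these data and the same changes in both lines. The intervals were tried on simulated Poisson counts. Neither shows the error rates in these data.

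The members and gene lists were chosen with earlier results of these data known, and the list of genes like mitochondrial ribosomal RNA was added after seeing the data. Genes were named by rule: the MT- genes, the 8 highest and 8 lowest fold changes of each class against the reference among genes of at least 100 CPM with the same sign in both libraries, the 3 most abundant members of each list, and MALAT1, NEAT1, EWSR1 and FLI1. Of the genes outside this rule, those named in the text as the called members of a list, the 6 Ewing sarcoma markers, the markers of other cells, MEG3, RPL36A, RPS21, TFRC, TYMS and the ER genes below HSP90B1, CALR and PDIA6 were chosen after their values were seen. A few genes and sequences are not reported here.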

Additional observations from a re-analysis of the deposited data

Results flagged for a closer look

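The summed shares of several lists moved in opposite directions in the 2 lines. They are given here as log2 ratios of the share of non-mitochondrial UMIs over the reference. With 1 library of each line none of these differences was tested. ER chaperones and translocon parts had -0.13 in CHLA9 and 1.13 in TC71 at 15% to 50% MT-, and -0.66 and 1.89 above 50%. Secreted and membrane proteins had -0.51 and 1.96 above 50%. The Ewing sarcoma identity genes, of which CD99 and STEAP1 are also in the secreted and membrane list, had -0.23 and 0.64 at 15% to 50% and -0.65 and 1.17 above 50%. CD99 held most of their UMIs in CHLA9, 44.1 of 64.0 per reference barcode. By gene, 4 of the 6 were above 0 at 15% to 50% in CHLA9 and 6 in TC71, with median log2 ratios of 0.21 and 0.39. Above 50%, 3 and 4 were above 0, with medians of -0.08 and 0.46. Splicing factors had 0.13 and -0.21 at 15% to 50%, and 0.13 and -0.49 above 50%. G2M genes had 0.39 and -0.20, and genes activated by EWSR1-FLI1 -0.55 and 0.15, both above 50%.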

How the results depend on the processing

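With the library as a block, 715 genes were called at 15% to 50% MT- and 3308 above 50%. With no replicate block 0 were called in either, and with TMM factors 0 at 15% to 50%. DESeq2 called 2857 genes at 15% to 50% and 290 between the damaged classes. With no low-count filter the 3 comparisons gave 3507, 6052 and 15 calls, and with a mean of at least 50 CPM 138 and 1880 against the reference. At 15% to 50% there were 1637 calls with members of at least 5000 UMIs and 2000 genes, 0 with a split at 30% (674 at an unadjusted p under 0.05), and 1433 with shallow barcodes as the reference. Other alternatives stayed within 1.5 times the count, among them the one chosen after seeing the data, which left the MTRNR2L genes out (702 and 3306).

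The share of barcodes was 16.5% in CHLA9 and 38.7% in TC71 above 10% MT-, 24.1% in TC71 above 20%, and 3.85% and 25.8% of barcodes with at least 5000 UMIs and 2000 genes. The mean log2 ratio of nuclear long noncoding RNAs over the lines was 1.97 at 15% to 50% and 2.25 above 50%. It was 2.08 and 2.88 with deep members, 1.07 and 2.44 with the split at 30%, 1.49 and 1.77 with shallow barcodes as the reference, and 1.82 above 50% as the mean of the barcodes' own shares. That of ribosomal proteins at 15% to 50% was -0.65, and -0.23 with the split at 30%. With deep members the log2 ratio of median MT- UMIs above 50% was 0.80 in place of 0.15, and that of other UMIs -2.96 in place of -4.14. Leaving out either line gave 1.91 to 2.03 and 2.13 to 2.36 for nuclear noncoding RNAs, -0.88 to -0.41 and -1.86 to -0.83 for ribosomal proteins, -0.13 to 1.13 and -0.66 to 1.89 for the ER list, and -0.03 to 1.22 and -0.51 to 1.96 for the secreted list. Directions reversed at 15% to 50% for heat shock proteins (0.0113) and ATF4 genes (0.0088) with the split at 30%, and for histones (0.20) and HIST1H4C (0.23) with shallow barcodes as the reference. The cause was not tested. Of 1988 values of named genes under alternatives, 1752 kept their side of the threshold. Of 430 list shares, 372 moved by no more than the standard deviation of the 2 lines. Leaving out either line always meets that limit, and the limit is wide where the lines differ. This count is therefore no measure of stability. Depth limits the class above 50% of CHLA9 most, with 442822 UMIs.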
